A study of Mus musculus with 16 samples.

Results

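The genes described here are 46 genes that drive or mark cell division, 18 of DNA replication and S phase and 28 of mitosis, measured in the lungs of Prdm11 knockout and wild type mice with and without an ovalbumin (OVA) challenge. They were chosen by name, with earlier results of these data known, and every probe annotated with one of the names was used. Counts of members set beside the shares of all tested probes are therefore a description. Of the 46, 42 had a probe, out of 16593 named genes on the array, with 68 probes between them. The proliferation marker Mki67, the mitotic cyclin gene Ccnb1, the kinase gene Aurkb and the cytokinesis gene Racgap1 had no named probe. The 18 S phase genes all had a probe, and so had 24 of the 28 mitotic genes.

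Cell division genes are switched on in waves. E2F transcription factors, held back by the retinoblastoma protein until a cell commits to divide, turn on the genes that license replication origins, make deoxynucleotides and copy DNA. The MuvB complex, with B-MYB and FOXM1, later turns on the genes that build the spindle, attach chromosomes to it and split the cell. Most cells of a resting adult lung are not dividing, whereas allergic airway inflammation brings in and expands lymphocytes and macrophages, so these genes are a usual readout of cycling cells in lung tissue.

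Lung RNA was hybridised to Illumina bead arrays, 1 array per mouse, from 16 female C57BL/6N mice in 4 groups of 4. The groups were Prdm11 knockout mice challenged with OVA, untreated Prdm11 knockout mice, wild type mice challenged with OVA and untreated wild type mice. Prdm11 encodes a member of the PRDM family of transcriptional regulators. The labels do not describe the knockout allele, and with no named Prdm11 probe the genotypes rest on the labels. Challenged mice were sensitised by intraperitoneal OVA (10 µg) in alum (2 mg) and breathed a 1% OVA aerosol 3 times for 30 min. The labels do not say whether the untreated mice were sensitised. The challenged mice of both genotypes were 35 weeks old and the untreated mice of both genotypes 22 weeks old, so age and challenge cannot be told apart. The deposited values are probe intensities, given here on a log2 scale, and a difference of 1 is a 2-fold difference. The groups were compared in 1 linear model (limma) over all 17810 probes bright enough to test, and a gene was called higher or lower at a Benjamini-Hochberg adjusted p under 0.05 over all those probes. The p-values rest on a spread between mice that is pooled, for each probe, over the 4 groups. They therefore do not measure the spread of the compared groups alone, and 4 mice a group limit their precision. Because RNA came from whole lung, more dividing cells and more RNA per dividing cell cannot be told apart.

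The sequence around the transcription start differs between the gene groups in a way the choice by name did not use. The promoters of 39 of the 46 members were found in RefSeq (build GRCm38.p6), and the window from 250 bases before to 50 bases after each start was searched on both strands. An E2F match was any of TTTGGCGC, TTTCCCGC, TTTGCCGC or TTTCGCGC, some of which can overlap each other on opposite strands. The cell cycle genes homology region (CHR), the element that MuvB binds, was TTTGAA, and the CCAAT box, bound by NF-Y, was CCAAT. An E2F match was present in 7 of 15 S phase genes (46.7%) and in 1 of 24 mitotic genes (4.17%), beside 2.6% of all 27025 genes with a promoter. In 2 of the 7, Cdt1 and Mcm3, the E2F match lay only from the start on. A CHR match was present in 17 of 24 mitotic genes (70.8%) and in 1 of 15 S phase genes (6.67%), beside 20.2% of all genes. For 9 of the 17 mitotic genes a CHR match lay before the start, and for the other 8 (Aurka, Bub1b, Cdca8, Cenpa, Hmmr, Kif23, Plk1 and Racgap1) only from the start on. CCAAT was present in 21 of 24 mitotic genes (87.5%), 9 of 15 S phase genes (60%) and 41.1% of all genes. Matches of this kind are letters in a window and were not tested as binding sites.

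To show these elements, the 190 bases before the start are printed for 4 S phase and 4 mitotic genes whose values are described below, 5′ to 3′ on the gene's strand, with E2F and CHR matches in capitals. For Uhrf1 and Prc1 the second of the listed starts is shown. The 4 S phase stretches lie at chr8:75109319-75109508 (Mcm5, + strand), chr1:128359706-128359895 (Mcm6, - strand), chr5:138171884-138172073 (Mcm7, - strand) and chr17:56304123-56304312 (Uhrf1, + strand), and their capitals are E2F matches, merged into 1 run where matches on opposite strands overlap. The 4 mitotic stretches lie at chr4:118437344-118437533 (Cdc20, - strand), chr10:69352913-69353102 (Cdk1, - strand), chr7:80294286-80294475 (Prc1, + strand) and chr11:99024190-99024379 (Top2a, - strand), and their capitals are CHR matches, except that Cdk1 carries an E2F match as well.
Mcm5: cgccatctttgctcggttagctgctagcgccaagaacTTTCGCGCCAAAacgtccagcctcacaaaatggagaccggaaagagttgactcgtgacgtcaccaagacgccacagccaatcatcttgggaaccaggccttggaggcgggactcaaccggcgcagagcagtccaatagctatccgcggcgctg
Mcm6: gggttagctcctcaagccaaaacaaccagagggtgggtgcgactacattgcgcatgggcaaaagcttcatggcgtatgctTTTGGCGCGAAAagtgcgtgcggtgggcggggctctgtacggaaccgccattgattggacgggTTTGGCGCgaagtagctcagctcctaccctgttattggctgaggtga
Mcm7: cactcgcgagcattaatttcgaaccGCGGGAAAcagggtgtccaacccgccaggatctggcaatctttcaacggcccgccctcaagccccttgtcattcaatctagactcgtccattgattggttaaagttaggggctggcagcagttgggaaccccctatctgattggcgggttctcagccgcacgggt
Uhrf1: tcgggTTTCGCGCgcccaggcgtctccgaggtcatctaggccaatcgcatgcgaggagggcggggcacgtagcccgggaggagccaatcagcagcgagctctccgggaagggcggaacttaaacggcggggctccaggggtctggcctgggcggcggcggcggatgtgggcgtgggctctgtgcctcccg
Cdc20: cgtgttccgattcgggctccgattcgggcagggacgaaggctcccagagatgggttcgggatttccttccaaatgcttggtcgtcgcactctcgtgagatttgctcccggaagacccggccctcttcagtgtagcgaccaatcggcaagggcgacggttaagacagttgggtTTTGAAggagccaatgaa
Cdk1: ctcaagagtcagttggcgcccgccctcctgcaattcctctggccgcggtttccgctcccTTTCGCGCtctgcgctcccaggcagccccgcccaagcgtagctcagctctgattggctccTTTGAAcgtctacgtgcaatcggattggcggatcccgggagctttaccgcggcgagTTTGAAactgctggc
Prc1: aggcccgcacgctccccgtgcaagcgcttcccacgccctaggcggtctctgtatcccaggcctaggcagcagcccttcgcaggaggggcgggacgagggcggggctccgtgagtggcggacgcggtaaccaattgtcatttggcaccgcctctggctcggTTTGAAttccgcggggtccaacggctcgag
Top2a: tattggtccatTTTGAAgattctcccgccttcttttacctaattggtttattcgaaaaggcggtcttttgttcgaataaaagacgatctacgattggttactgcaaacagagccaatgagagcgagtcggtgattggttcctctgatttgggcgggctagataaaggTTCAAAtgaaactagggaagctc
In the S phase stretches the long capital runs of Mcm5 and Mcm6 hold overlapping E2F matches, and none of the 4 holds a CHR match. The 4 mitotic stretches each hold at least 1 CHR match, and CCAAT or its reverse ATTGG stands in all 8.

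**Figure D1:**
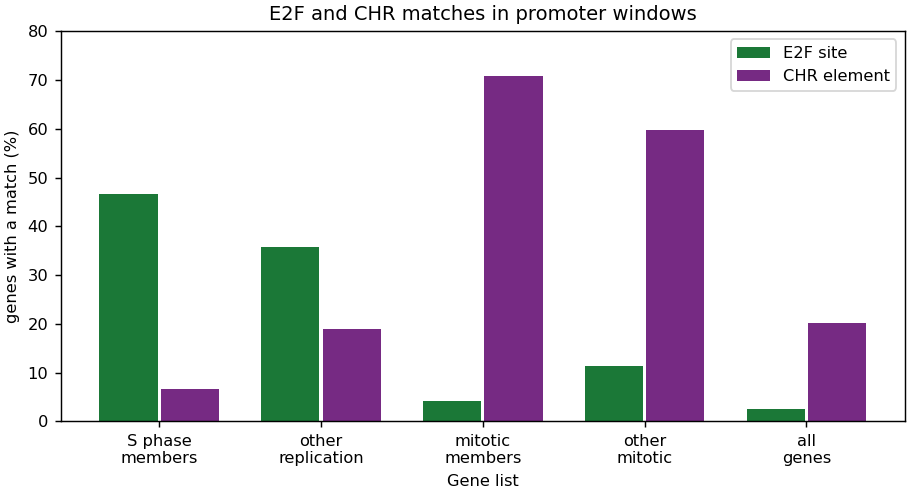
Percent of genes with a match (vertical axis from 0) in the window from 250 bases before to 50 bases after the start, with paired bars for E2F and CHR, for S phase members, other replication genes, mitotic members, other mitotic genes and all genes. E2F matches are most frequent in S phase members (46.7% of 15 genes) and CHR matches in mitotic members (70.8% of 24 genes), against 2.6% and 20.2% of all genes.

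Before the results, 1 array and several marker levels need stating. The array of challenged wild type mouse 4 stood apart, with correlations of 0.751 to 0.884 with the other 15 arrays over all probes, where no pair of other arrays fell under 0.910. It was the highest of the 4 challenged wild type arrays for 17 of 34 tested members and the lowest for 11. The median SD of the tested members was 0.146 in challenged knockout mice and 0.154 in untreated knockout mice, and 0.294 in challenged wild type mice and 0.169 in untreated wild type mice. The mean of 1304 odorant and vomeronasal receptor probes, genes not known as lung genes, was 5.85 to 5.96 in challenged knockout and 5.93 to 6.02 in untreated knockout arrays. In wild type arrays that mean was 6.10 to 6.47 after challenge, with mouse 4 at 6.47, and 5.97 to 6.08 untreated. Lung epithelial markers, the check of the labelled tissue, averaged 10.54 to 12.05 in challenged and 12.08 to 12.13 in untreated knockout lungs, and 11.92 to 12.08 in challenged and 12.15 to 12.26 in untreated wild type lungs.

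Skeletal muscle markers, which should be scarce in lung, also moved with the challenge. Their mean over 15 genes was 10.81 to 11.57 in challenged and 8.74 to 9.49 in untreated knockout lungs, with no overlap. It was 8.71 to 11.40 in challenged and 8.31 to 9.10 in untreated wild type lungs, where the groups overlapped. All 15 were called higher in the knockout and 10 in the wild type. Of 14 cardiac muscle markers, 7 and 6 were called higher. The skeletal muscle mean was also added to the model, and where this ended a call described below, the adjusted p of that fit is given as the muscle-adjusted p.

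Challenged lungs of both genotypes had more RNA of cell division genes, and few had less. In knockout mice 15 of the 34 tested members were called higher after challenge and 0 lower, against 9.1% and 7.48% of all tested probes called higher and lower. No member was lower at an unadjusted p under 0.05 in that comparison either, by limma, the tool used. The wild type had 15 members called higher and 2 lower, against 11.7% and 17.7% of all tested probes. The brightness filter asked for 4 arrays above the 40th percentile of their array, the gauge of background used here. Of the members called higher, 4 in the knockout (Mcm7, Plk1, Rrm2 and Top2a) and 1 in the wild type (Cenpe) passed it only through the challenged group, so these had to be brighter there and the counts are given as a description. The median difference was 0.35 for S phase and 0.25 for mitotic members in the knockout, beside -0.05 for all tested probes, and 0.25 and 0.20 in the wild type, beside 0.03. The difference was above 0 for 25 of the 34 members in the knockout and 27 in the wild type, against 42.8% and 52.4% of all tested probes. All 4 challenged lay above all 4 untreated knockout mice for 20 members, and below for 0, against 14.7% and 18.6% of all tested probes. Kif11, not called, is among these 20 and also passed the brightness filter only through the challenged knockout group. In wild type mice the groups separated upward for 15 members and downward for 0, against 10.4% and 15.7%.

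The 2 waves moved by similar counts. Of 16 tested S phase genes, 8 were called higher in the knockout and 7 in the wild type, and of 18 tested mitotic genes 7 and 8. The mean log2 of the S phase genes was 7.45 to 7.68 in challenged and 7.11 to 7.17 in untreated knockout mice, and 7.27 to 7.58 in challenged and 7.01 to 7.07 in untreated wild type mice. That of the mitotic genes was 7.11 to 7.27 in challenged and 6.75 to 6.88 in untreated knockout mice, and 7.01 to 7.29 in challenged and 6.69 to 6.86 in untreated wild type mice. In both genotypes and both waves every challenged array thus lay above every untreated one. The S phase mean holds Mcm7 and Rrm2, and the mitotic mean Plk1, Top2a, Cenpe and Kif11, which passed the brightness filter only through a challenged group. The separation of the means is therefore given as a description. The S phase mean exceeded the mitotic mean by 0.36 ± 0.09 in challenged and 0.35 ± 0.03 in untreated knockout mice, and by 0.27 ± 0.12 in challenged and 0.26 ± 0.08 in untreated wild type mice (SD, n = 4 each), so the gap differed with challenge by less than its spread between mice.

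**Figure D2:**
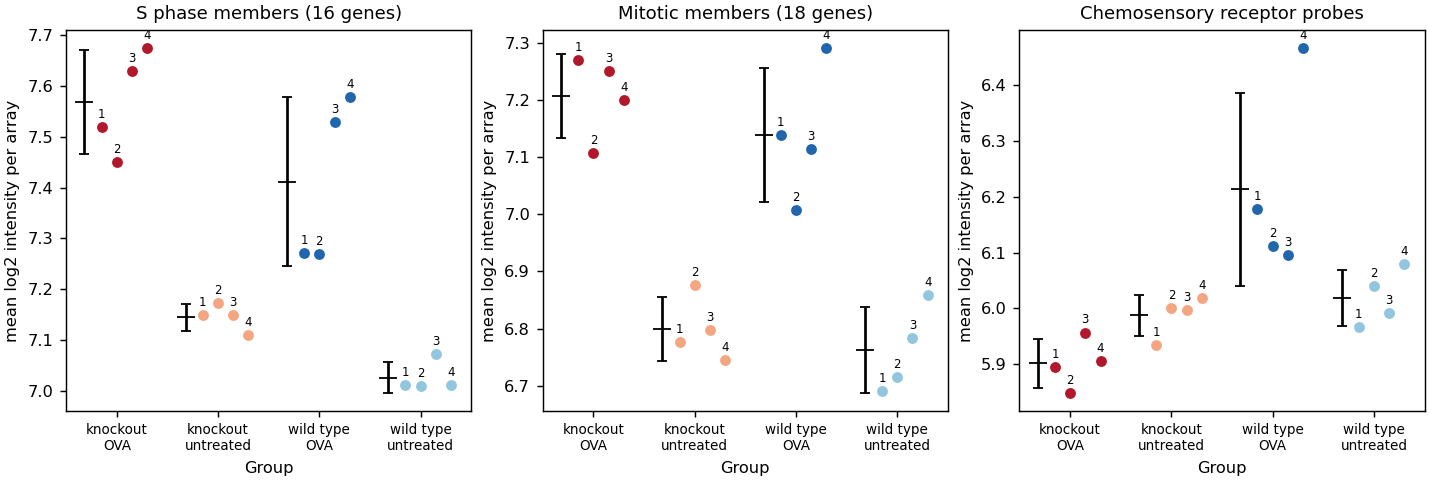
Mean log2 intensity of the tested S phase members (16 genes), mitotic members (18 genes) and odorant and vomeronasal receptor probes (1304) on each of the 16 arrays, by group from left to right as challenged knockout, untreated knockout, challenged wild type and untreated wild type. Points carry the replicate number and bars are the group mean ± SD. Challenged arrays lie above untreated ones in both genotypes for both member groups, and challenged wild type mouse 4 is the highest array for receptor probes, at 6.47.

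These counts depend on what the model holds. With the skeletal muscle mean as a covariate, 2 members stayed called in the knockout, Uhrf1 and Plk1, and 10 in the wild type, and in the knockout the muscle mean and the challenge cannot be told apart. With the receptor mean as a covariate the counts were 17 in the knockout and 9 in the wild type, and without challenged wild type mouse 4 they were 17 and 16. When the 8 arrays of each comparison were fitted alone, so that the other groups did not enter the spread, they were 20 and 9.

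In both genotypes 8 members were called higher with challenge, 4 of each wave, or 23.5% of those tested, against 3.13% of all tested probes.

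Uhrf1, whose protein reads hemimethylated DNA behind the replication fork and recruits the maintenance methyltransferase, changed most. In the knockout, Uhrf1 read 9.08, 9.0, 9.42 and 9.35 in challenged mice, against 7.65, 7.86, 7.74 and 7.81 in untreated mice. Wild type Uhrf1 values were 9.01, 8.81, 9.27 and 9.81 after challenge, against 7.49, 7.77, 7.56 and 7.83 untreated. All challenged mice lay above all untreated mice of their genotype, with a wide gap. The difference was 1.45 ± 0.17 (SE, adjusted p = 9.54e-05) in the knockout and 1.56 ± 0.17 (SE, adjusted p = 4.79e-05) in the wild type, 2.72- and 2.95-fold, and it stayed called in every setting tried.

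Mcm5 and Mcm6 encode subunits of the MCM helicase that is loaded on origins and unwinds DNA. Mcm5 was at 8.27, 8.09, 8.81 and 8.87 in challenged knockout mice and at 7.78, 8.0, 7.91 and 8.02 in untreated knockout mice. For Mcm5, challenged wild type mice had 8.67, 8.37, 9.0 and 8.19, and untreated wild type mice 7.55, 7.67, 7.76 and 7.95. For Mcm5 the groups separated in both genotypes, by 0.58 ± 0.19 (SE, adjusted p = 0.0465) in the knockout and 0.83 ± 0.19 (SE, adjusted p = 0.00528) in the wild type, and the knockout call was lost in 11 of 16 fits that left out 1 array (adjusted p up to 0.152) and with the muscle mean (muscle-adjusted p = 0.37). For Mcm6, challenged knockout mice had 9.18, 9.06, 9.50 and 9.49, and untreated knockout mice 8.88, 8.95, 8.71 and 8.62. The Mcm6 values in wild type mice were 9.31, 9.13, 9.66 and 9.78 with challenge and 8.54, 8.39, 8.64 and 8.73 untreated. The Mcm6 groups did not overlap either, and the differences were 0.52 ± 0.15 (SE, adjusted p = 0.028) and 0.90 ± 0.15 (SE, adjusted p = 0.000739) in knockout and wild type. The knockout call of Mcm6 was lost in 4 of 16 fits that left out 1 array (adjusted p up to 0.0901), and its muscle-adjusted p was 0.116. Mcm6 has 2 further tested probes, neither called, which gave 0.22 and 0.16 in the knockout and 0.16 and -0.17 in the wild type.

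Tk1 encodes thymidine kinase, which salvages thymidine for DNA synthesis. In the knockout, Tk1 read 7.47, 7.37, 7.60 and 7.70 in challenged mice, against 6.91, 6.86, 6.62 and 6.57 in untreated mice. Wild type Tk1 values were 7.25, 7.42, 7.19 and 7.20 after challenge, against 6.83, 6.37, 6.91 and 6.69 untreated. The challenged mice were the higher group in both genotypes, without overlap. Tk1 differed by 0.79 ± 0.13 (SE, adjusted p = 0.0006) in the knockout and 0.56 ± 0.13 (SE, adjusted p = 0.00503) in the wild type. Neither call held with the muscle mean, at a muscle-adjusted p of 0.172 in the knockout and 0.057 in the wild type.

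Among mitotic genes, Cenpa encodes the histone H3 variant that marks centromeres. Cenpa was at 9.48, 9.13, 9.52 and 9.48 in challenged knockout mice and at 8.42, 8.63, 8.58 and 8.27 in untreated knockout mice. For Cenpa, challenged wild type mice had 9.45, 9.28, 9.21 and 9.53, and untreated wild type mice 8.43, 8.35, 8.38 and 8.61. Knockout mouse 2 was the lowest of its challenged group, and even so the groups did not overlap in either genotype. The differences were nearly equal, at 0.92 ± 0.12 (SE, adjusted p = 0.000147) in the knockout and 0.93 ± 0.12 (SE, adjusted p = 0.000104) in the wild type, and the muscle-adjusted p in the knockout was 0.0979.

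Prc1 bundles the microtubules of the central spindle, and Nusap1 bundles microtubules around chromosomes. For Prc1, challenged knockout mice had 9.26, 8.92, 8.57 and 8.90, and untreated knockout mice 7.74, 7.78, 7.76 and 7.53. The Prc1 values in wild type mice were 8.48, 7.96, 8.19 and 8.89 with challenge and 7.29, 7.68, 7.32 and 7.89 untreated. All challenged values of Prc1 were the higher ones in each genotype, by 1.21 ± 0.19 (SE, adjusted p = 0.000577) in the knockout, where the muscle-adjusted p was 0.116, and 0.84 ± 0.19 (SE, adjusted p = 0.0057) in the wild type. The wild type call of Prc1 was lost with the receptor mean as a covariate. In the knockout, Nusap1 read 8.37, 8.17, 8.41 and 8.48 in challenged mice, against 7.29, 7.65, 7.38 and 7.39 in untreated mice. Wild type Nusap1 values were 8.25, 8.10, 8.21 and 8.49 after challenge, against 7.27, 7.49, 7.32 and 7.68 untreated. Nusap1 separated the groups as well, with 0.93 ± 0.12 (SE, adjusted p = 0.000169) and 0.82 ± 0.12 (SE, adjusted p = 0.000295) in knockout and wild type, although its other tested probe gave 0.08 and 0.18 and was not called. The muscle-adjusted p of Nusap1 in the knockout was 0.0837.

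Birc5 encodes survivin, the subunit that brings the Aurora B complex to centromeres. Birc5 was at 7.53, 7.24, 7.46 and 7.73 in challenged knockout mice and at 6.84, 6.94, 6.72 and 7.10 in untreated knockout mice. For Birc5, challenged wild type mice had 7.86, 7.62, 7.66 and 8.60, and untreated wild type mice 6.69, 6.93, 6.66 and 6.69. The groups did not overlap, and the difference was 0.59 ± 0.18 (SE, adjusted p = 0.0346) in the knockout and 1.19 ± 0.18 (SE, adjusted p = 0.000347) in the wild type. The knockout call was lost in 6 of 16 fits that left out 1 array (adjusted p up to 0.109) and with the muscle mean (muscle-adjusted p = 0.471), and of its 2 other probes 1 was called in each genotype.

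**Figure D3:**
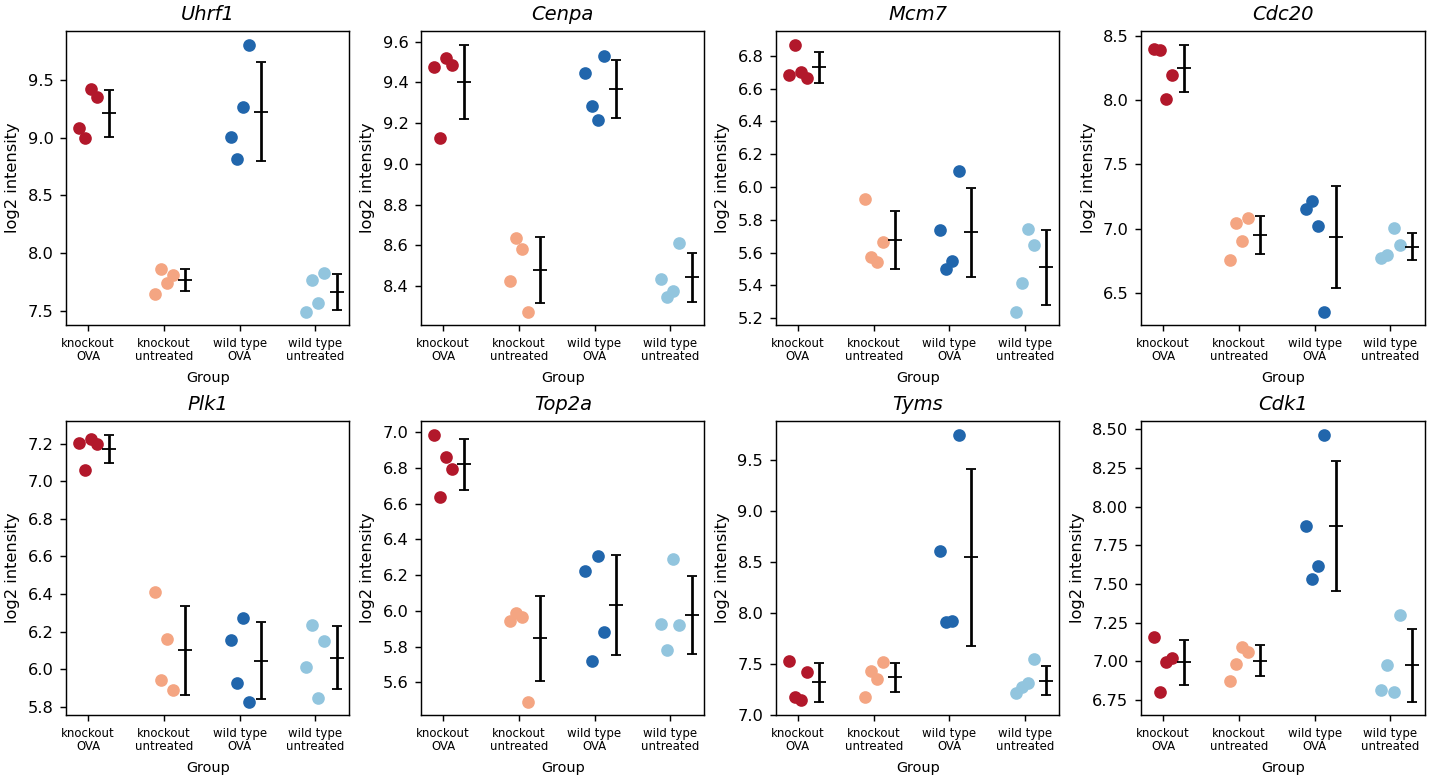
Log2 intensity of Uhrf1, Cenpa, Mcm7, Cdc20, Plk1, Top2a, Tyms and Cdk1 on each array, 1 panel per gene, with the groups from left to right as challenged knockout, untreated knockout, challenged wild type and untreated wild type and bars at the mean ± SD. Uhrf1 and Cenpa were higher in both challenged groups, Mcm7, Cdc20, Plk1 and Top2a in challenged knockout mice, and Tyms and Cdk1 in challenged wild type mice.

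A further 7 members were called higher in challenged knockout mice and not in challenged wild type mice, which alone does not show that the genotypes differ. They are the S phase genes Mcm7, Cdc6, Cdt1 and Rrm2 and the mitotic genes Cdc20, Plk1 and Top2a, and all 7 were also called higher in challenged knockout than in challenged wild type mice. The genotype comparison after challenge shares its arrays with both challenge comparisons. Over all members it called 12 higher and 7 lower, against 21.1% and 23.1% of all tested probes. These counts are 35.3% and 20.6% of the members. With the receptor mean as a covariate 6 members were called between the challenged genotypes, and 10 with the 8 challenged arrays fitted alone. Of the 7 named above, the receptor mean ended this genotype call for Cdc6, Cdt1, Rrm2 and Top2a. Fitting the 8 challenged arrays alone ended it for Cdc6 and Cdt1. The groups did not overlap for 10 members upward and 5 downward, against 15.8% and 18.6% of all tested probes.

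Cdc20 encodes an activator of the anaphase-promoting complex. For Cdc20, challenged knockout mice had 8.39, 8.39, 8.01 and 8.19, and untreated knockout mice 6.76, 7.04, 6.90 and 7.09. The Cdc20 values in wild type mice were 7.15, 7.21, 7.02 and 6.36 with challenge and 6.77, 6.79, 7.01 and 6.87 untreated. The challenged knockout mice lay above all other mice, and the wild type groups overlapped. The challenge difference was 1.30 ± 0.16 (SE, adjusted p = 0.000121) in the knockout and 0.07 ± 0.16 (SE, adjusted p = 0.738) in the wild type, and the difference between them, the interaction, was 1.22 ± 0.23 (SE, adjusted p = 0.0108). All 3 tested Cdc20 probes were called higher in the knockout, the other 2 with 0.73 and 0.44, and none in the wild type. The interaction of these other 2 probes was 0.97 (limma adjusted p = 0.0141) and 0.46 (adjusted p = 0.0939), the latter not called. With the receptor mean as a covariate the interaction call of Cdc20 was lost. Challenged knockout exceeded challenged wild type mice by 1.31 ± 0.16 (SE, adjusted p = 0.000111). The knockout challenge call did not hold with the muscle mean (muscle-adjusted p = 0.119).

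Plk1 encodes the polo kinase that governs entry into and progress through mitosis. In the knockout, Plk1 read 7.21, 7.06, 7.23 and 7.20 in challenged mice, against 6.41, 5.94, 6.16 and 5.89 in untreated mice. Wild type Plk1 values were 6.16, 5.93, 6.27 and 5.83 after challenge, against 6.01, 6.23, 5.85 and 6.15 untreated. As for Cdc20, challenged knockout mice stood above all other groups. Only 1 untreated knockout, 1 challenged wild type and 0 untreated wild type arrays lay above their 40th percentile for Plk1, so its differences have only a lower bound. Such bounds are taken here as the mean of the brighter group over that of the dimmer group, with each dim array set to its 40th percentile where it read less. The adjusted p beside a bound is that of the limma fit to the values as read, not of the bound. Challenged knockout mice were at least 1.85-fold (adjusted p = 0.000113) higher than untreated knockout and at least 1.9-fold (adjusted p = 8.99e-05) higher than challenged wild type mice, and no difference is given between the wild type groups. The interaction was called (adjusted p = 0.00778), and its size rests on values at background.

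Top2a encodes the topoisomerase that untangles replicated chromosomes. Top2a was at 6.99, 6.64, 6.86 and 6.79 in challenged knockout mice and at 5.94, 5.99, 5.96 and 5.49 in untreated knockout mice. For Top2a, challenged wild type mice had 6.22, 5.72, 6.31 and 5.88, and untreated wild type mice 5.92, 5.78, 6.29 and 5.92. Challenged knockout mice were again above all others, at least 1.49-fold (adjusted p = 0.000598) over untreated knockout and at least 1.48-fold (adjusted p = 0.00165) over challenged wild type mice. The muscle-adjusted p of the challenge difference was 0.0513. In the other groups 0 untreated knockout, 1 challenged wild type and 1 untreated wild type arrays were above their 40th percentile, and the interaction call (adjusted p = 0.0253) was lost in 4 of 16 fits that left out 1 array (adjusted p up to 0.0559).

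Mcm7 is a further subunit of the MCM helicase. For Mcm7, challenged knockout mice had 6.68, 6.87, 6.70 and 6.67, and untreated knockout mice 5.93, 5.57, 5.54 and 5.66. The Mcm7 values in wild type mice were 5.74, 5.50, 5.55 and 6.10 with challenge and 5.24, 5.41, 5.74 and 5.65 untreated. Mcm7 was above the 40th percentile on 4 of 4 challenged knockout arrays and on 0 of 4 in each other group, so it was tested only because of the group in which it was high. Challenged knockout mice were at least 1.4-fold (adjusted p = 0.000208) higher than untreated knockout and at least 1.4-fold (adjusted p = 0.000273) higher than challenged wild type mice, with a muscle-adjusted p of 0.0863 for the challenge. The interaction call (adjusted p = 0.0258) was lost in 4 of 16 fits that left out 1 array (adjusted p up to 0.0574).

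Rrm2 encodes the small subunit of ribonucleotide reductase, which makes deoxynucleotides. In the knockout, Rrm2 read 6.61, 6.60, 6.33 and 6.40 in challenged mice, against 6.24, 5.83, 6.09 and 5.92 in untreated mice. Wild type Rrm2 values were 5.93, 5.77, 6.25 and 5.98 after challenge, against 5.55, 5.83, 5.96 and 5.80 untreated. The challenged knockout group was the highest without overlap. In the other groups 1 array, of a challenged wild type mouse, was above its 40th percentile. The challenged knockout group was at least 1.18-fold (adjusted p = 0.0212) higher than untreated knockout and at least 1.18-fold (adjusted p = 0.0072) higher than challenged wild type mice. The challenge call was lost in 4 of 16 fits that left out 1 array (adjusted p up to 0.0738), and its muscle-adjusted p was 0.137.

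Cdc6 and Cdt1 encode the factors that load the MCM helicase on origins. Cdc6 was at 6.82, 6.59, 6.85 and 6.97 in challenged knockout mice and at 6.57, 6.37, 6.46 and 6.44 in untreated knockout mice. For Cdc6, challenged wild type mice had 6.34, 6.42, 6.58 and 6.48, and untreated wild type mice 6.43, 6.45, 6.64 and 6.27. Challenged knockout mice were above both comparison groups for Cdc6, by 0.35 ± 0.11 (SE, adjusted p = 0.0343) over untreated knockout and 0.35 ± 0.11 (SE, adjusted p = 0.0152) over challenged wild type mice, while its other probe, called in neither comparison, gave 0.02 and -0.08. The Cdc6 challenge call was lost in 6 of 16 fits that left out 1 array (adjusted p up to 0.113) and had a muscle-adjusted p of 0.333. For Cdt1, challenged knockout mice had 7.71, 7.49, 8.01 and 8.07, and untreated knockout mice 7.02, 7.27, 7.18 and 6.86. The Cdt1 values in wild type mice were 6.89, 7.38, 7.95 and 6.46 with challenge and 7.15, 7.24, 7.03 and 7.13 untreated. For Cdt1 the challenge difference was 0.74 ± 0.24 (SE, adjusted p = 0.0428) in the knockout and 0.03 ± 0.24 (SE, adjusted p = 0.935) in the wild type. The knockout call was lost in 11 of 16 fits that left out 1 array (adjusted p up to 0.123) and with the muscle mean (muscle-adjusted p = 0.258). The challenged genotypes overlapped for Cdt1 and differed by 0.65 ± 0.24 (SE, adjusted p = 0.0358), with a muscle-adjusted p of 0.0535. That difference was -0.08 with the receptor mean as a covariate, and without wild type mouse 4 it was 0.41 and not called.

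Another 7 members were called higher in challenged wild type mice and not in the knockout, namely Tyms, Ccne2 and Mcm2 of S phase and Aurka, Cdk1, Cdca8 and Cenpe of mitosis. In all 7 the highest challenged wild type array was that of mouse 4, the array that stood apart. All but Mcm2 were called lower in challenged knockout than in challenged wild type mice. Fitted on the 8 wild type arrays alone, 9 members in all were called, and of these 7 only Cdk1 was. With the receptor mean as a covariate Cdk1 was again the only 1 of the 7 called in the wild type, and the genotype difference of Tyms, Ccne2, Aurka, Cdca8 and Cenpe changed sign. The call of Cdk1 between the challenged genotypes was lost in that fit too, as was its interaction call.

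Cdk1 encodes the kinase that drives mitosis. In the knockout, Cdk1 read 7.16, 6.80, 7.0 and 7.02 in challenged mice, against 6.87, 6.99, 7.09 and 7.06 in untreated mice. Wild type Cdk1 values were 7.88, 7.53, 7.62 and 8.46 after challenge, against 6.81, 6.98, 6.80 and 7.30 untreated. All challenged wild type mice exceeded all other mice, and mouse 4 was the highest. Cdk1 differed by -0.01 ± 0.17 (SE, adjusted p = 0.979) with challenge in the knockout and 0.90 ± 0.17 (SE, adjusted p = 0.00184) in the wild type, by -0.88 ± 0.17 (SE, adjusted p = 0.00162) between the challenged genotypes, and its interaction was -0.91 ± 0.25 (SE, adjusted p = 0.0358). The other Cdk1 probe was also called in the wild type, with 0.42, but not between the challenged genotypes, with -0.18 (adjusted p = 0.163), nor in the interaction, with -0.34 (adjusted p = 0.121). The interaction call was lost in 10 of 16 fits that left out 1 array (adjusted p up to 0.0825), and its muscle-adjusted p was 0.0658.

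Tyms encodes thymidylate synthase, the source of new thymidylate. Tyms was at 7.53, 7.17, 7.15 and 7.42 in challenged knockout mice and at 7.18, 7.43, 7.35 and 7.52 in untreated knockout mice. For Tyms, challenged wild type mice had 8.61, 7.91, 7.92 and 9.75, and untreated wild type mice 7.22, 7.27, 7.31 and 7.55. Challenged wild type mice were the highest group without overlap. The differences were -0.05 ± 0.29 (SE, adjusted p = 0.928) in the knockout, 1.21 ± 0.29 (SE, adjusted p = 0.00709) in the wild type and -1.23 ± 0.29 (SE, adjusted p = 0.00437) between challenged genotypes, and the other 2 Tyms probes, at 0.33 and 0.34 in the wild type, were not called there. Without mouse 4 the wild type difference was 0.81 and the genotype difference -0.83, and the muscle-adjusted p in the wild type was 0.0576.

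Aurka encodes the Aurora kinase of spindle poles, and Cdca8 encodes borealin of the Aurora B complex. For Aurka, challenged knockout mice had 7.37, 7.04, 7.43 and 7.34, and untreated knockout mice 7.04, 7.43, 7.20 and 7.13. The Aurka values in wild type mice were 8.20, 7.84, 7.58 and 9.34 with challenge and 7.02, 7.31, 6.99 and 7.51 untreated. For Aurka the wild type groups separated, with mouse 4 far above the rest, by 1.03 ± 0.27 (SE, adjusted p = 0.0118), beside 0.10 ± 0.27 (SE, adjusted p = 0.847) in the knockout and -0.94 ± 0.27 (SE, adjusted p = 0.0126) between challenged genotypes. Without mouse 4 the Aurka differences were 0.67 in the wild type and -0.58 between challenged genotypes, and the wild type muscle-adjusted p was 0.0964. In the knockout, Cdca8 read 6.65, 6.60, 6.62 and 6.25 in challenged mice, against 6.41, 7.01, 6.67 and 6.75 in untreated mice. Wild type Cdca8 values were 7.46, 7.32, 7.36 and 8.94 after challenge, against 6.61, 6.96, 6.75 and 7.14 untreated. Cdca8 differed by -0.18 ± 0.28 (SE, adjusted p = 0.71) in the knockout and 0.91 ± 0.28 (SE, adjusted p = 0.0254) in the wild type, and by -1.24 ± 0.28 (SE, adjusted p = 0.00338) between challenged genotypes. Without mouse 4 these were 0.51 in the wild type and -0.85 between genotypes. The wild type call of Cdca8 was lost in 2 of 16 fits that left out 1 array (adjusted p up to 0.0745), and its muscle-adjusted p was 0.0927.

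Ccne2 encodes an E-type cyclin of the G1 to S transition, and Mcm2 a subunit of the MCM helicase. Ccne2 was at 6.30, 6.49, 6.22 and 6.45 in challenged knockout mice and at 6.24, 6.80, 6.69 and 6.80 in untreated knockout mice. For Ccne2, challenged wild type mice had 6.93, 7.28, 6.75 and 8.41, and untreated wild type mice 6.62, 6.63, 6.56 and 6.49. Ccne2 differed by -0.27 ± 0.26 (SE, adjusted p = 0.529) in the knockout, 0.77 ± 0.26 (SE, adjusted p = 0.037) in the wild type and -0.98 ± 0.26 (SE, adjusted p = 0.00821) between challenged genotypes. Without mouse 4 the Ccne2 difference was 0.41 in the wild type and -0.62 between genotypes, and its wild type muscle-adjusted p was 0.163. For Mcm2, challenged knockout mice had 7.32, 7.37, 7.55 and 7.59, and untreated knockout mice 6.88, 7.04, 7.24 and 7.29. The Mcm2 values in wild type mice were 7.36, 7.32, 7.87 and 8.42 with challenge and 6.98, 7.12, 7.13 and 7.26 untreated. Mcm2 separated challenged from untreated mice in both genotypes, by 0.35 ± 0.19 (SE, adjusted p = 0.254) in the knockout, which was not called, and 0.62 ± 0.19 (SE, adjusted p = 0.0256) in the wild type, 0.39 without mouse 4. Leaving out 1 untreated wild type array ended the wild type call in 4 of 4 cases for Ccne2 and in 3 of 4 for Mcm2.

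Cenpe encodes the kinesin that moves chromosomes to the spindle equator. In the knockout, Cenpe read 6.13, 5.92, 6.44 and 5.74 in challenged mice, against 6.02, 6.21, 6.01 and 6.19 in untreated mice. Wild type Cenpe values were 6.29, 6.34, 6.44 and 6.75 after challenge, against 5.68, 5.93, 6.10 and 6.17 untreated. Challenged wild type mice were at least 1.16-fold (adjusted p = 0.0276) higher than untreated wild type mice, and challenged knockout mice were at least 1.11-fold (adjusted p = 0.0463) lower than challenged wild type mice. In the other groups 1 challenged knockout, 0 untreated knockout and 0 untreated wild type arrays were above the 40th percentile, and without mouse 4 neither call remained. The muscle-adjusted p was 0.127 in the wild type and 0.148 between the challenged genotypes.

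The 2 members Rrm1 and Kif20a were called lower after challenge, both in the wild type. Rrm1 encodes the large subunit of ribonucleotide reductase. Rrm1 was at 7.26, 7.26, 7.37 and 7.41 in challenged knockout mice and at 7.35, 7.21, 7.24 and 6.40 in untreated knockout mice. For Rrm1, challenged wild type mice had 6.30, 6.63, 6.59 and 6.02, and untreated wild type mice 7.23, 7.20, 7.04 and 6.57. The wild type groups overlapped, with mouse 4 lowest. Rrm1 differed by 0.28 ± 0.20 (SE, adjusted p = 0.398) in the knockout, -0.62 ± 0.20 (SE, adjusted p = 0.0311) in the wild type and 0.94 ± 0.20 (SE, adjusted p = 0.00255) between challenged genotypes. The wild type call was lost in 5 of 16 fits that left out 1 array (adjusted p up to 0.0928), the fit without mouse 4 among them, and with the muscle mean (muscle-adjusted p = 0.19). Kif20a encodes a kinesin of cytokinesis. For Kif20a, challenged knockout mice had 6.86, 7.01, 6.77 and 6.79, and untreated knockout mice 7.14, 7.12, 6.82 and 6.66. The Kif20a values in wild type mice were 5.96, 6.12, 6.28 and 5.39 with challenge and 7.29, 6.37, 7.12 and 6.20 untreated. Challenged knockout mice were all above challenged wild type mice, of which 1 was above the 40th percentile, with mouse 4 lowest. Kif20a differed by -0.08 ± 0.23 (SE, adjusted p = 0.856) with challenge in the knockout. Challenged wild type mice were at least 1.41-fold (adjusted p = 0.0183) lower than untreated wild type mice, and challenged knockout mice were at least 1.52-fold (adjusted p = 0.00634) higher than challenged wild type mice. The wild type groups overlapped for Kif20a too. The wild type call of Kif20a was lost in 2 of 16 fits that left out 1 array (adjusted p up to 0.0675) and had a muscle-adjusted p of 0.173. Neither the Rrm1 nor the Kif20a call in the wild type held with the receptor mean as a covariate or with the 8 wild type arrays fitted alone. The receptor mean also ended the calls of both genes between the challenged genotypes.

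**Figure D4:**
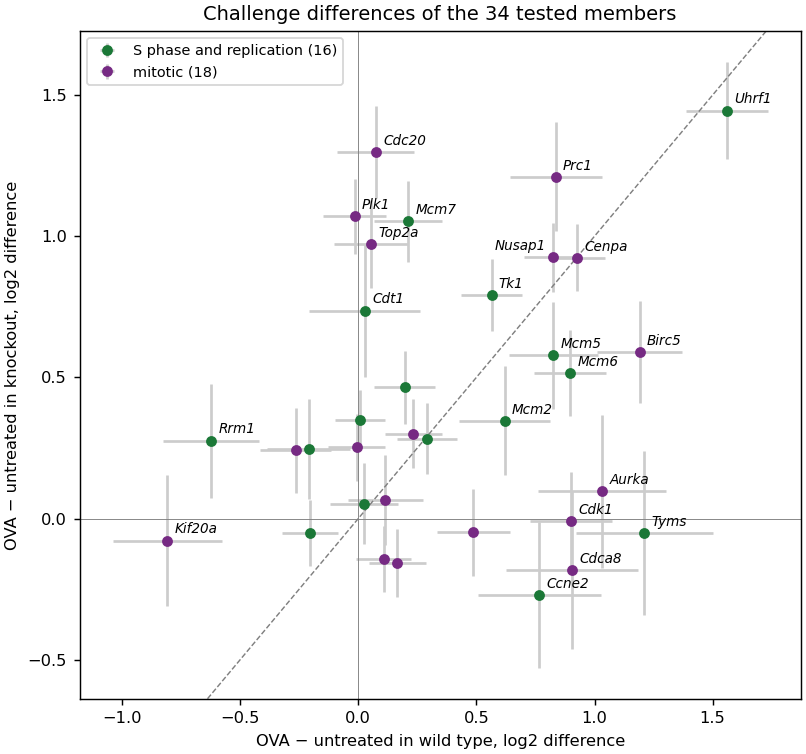
Challenge difference (log2, challenged minus untreated) of each of the 34 tested members in knockout mice on the vertical axis and in wild type mice on the horizontal axis, coloured by S phase or mitotic group, with bars of 1 SE and a dashed line of equal differences. Uhrf1 lies far out in both, Cdc20, Plk1, Top2a and Mcm7 lie high near the vertical axis, and Tyms, Aurka, Cdk1 and Cdca8 lie far right near the horizontal axis. Plk1, Top2a and Mcm7 were at background in untreated knockout mice and in both wild type groups, so their plotted sizes are uncertain.

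The other 10 tested members were called in neither challenge comparison, namely Cks2, Dut, Ect2, Kif11, Kif23, Mad2l1, Mcm3, Mcm4, Pcna and Tpx2. Pcna, the sliding clamp of DNA polymerases, was among them. In the knockout, Pcna read 7.34, 7.31, 7.45 and 7.45 in challenged mice, against 7.17, 7.07, 7.08 and 7.25 in untreated mice. Wild type Pcna values were 6.27, 6.65, 6.67 and 5.66 after challenge, against 6.74, 6.51, 6.55 and 6.29 untreated. The knockout mice were higher than the wild type mice both with and without challenge, and neither pair of genotype groups overlapped. Pcna differed by 0.25 ± 0.18 (SE, adjusted p = 0.385) with challenge in the knockout and -0.21 ± 0.18 (SE, adjusted p = 0.367) in the wild type. Challenged knockout exceeded challenged wild type mice by 1.08 ± 0.18 (SE, adjusted p = 0.000568), a called difference, and untreated knockout exceeded untreated wild type mice by 0.62 ± 0.18 (SE, adjusted p = 1), which was not called. With the receptor mean as a covariate the Pcna call between the challenged genotypes was lost. Mki67, the most used proliferation marker, could not be read because it had no named probe.

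Of these 10, 2 more were called between the challenged genotypes. Kif23 encodes a kinesin of the central spindle. Kif23 was at 6.97, 6.89, 7.07 and 6.89 in challenged knockout mice and at 6.92, 6.63, 6.86 and 6.44 in untreated knockout mice. For Kif23, challenged wild type mice had 6.33, 6.54, 6.80 and 6.18, and untreated wild type mice 6.62, 6.44, 6.88 and 6.96. All challenged knockout mice were above all challenged wild type mice for Kif23, by 0.50 ± 0.15 (SE, adjusted p = 0.0165). That Kif23 call was lost with the receptor mean as a covariate and with the 8 challenged arrays fitted alone. Cks2 encodes a small partner of cyclin-dependent kinases. For Cks2, challenged knockout mice had 6.0, 5.91, 6.47 and 6.37, and untreated knockout mice 6.29, 6.34, 6.37 and 6.38. The Cks2 values in wild type mice were 6.52, 6.48, 6.46 and 6.70 with challenge and 6.32, 6.26, 6.42 and 6.50 untreated. Cks2 was lower in challenged knockout than in challenged wild type mice, with overlap and a difference of -0.35 ± 0.12 (SE, adjusted p = 0.0281), and the call was lost in 3 of 16 fits that left out 1 array (adjusted p up to 0.0932), 1 of them without mouse 4, and with the muscle mean (muscle-adjusted p = 0.073). Prc1, higher with challenge in both genotypes, was higher by 0.53 ± 0.19 (SE, adjusted p = 0.0363) in challenged knockout than in challenged wild type mice, with overlap. That Prc1 call was lost in 5 of 16 fits that left out 1 array (adjusted p up to 0.114), with the muscle mean (muscle-adjusted p = 0.0997) and with the 8 challenged arrays fitted alone.

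The remaining 7 were called in no comparison. Mcm4, an MCM helicase subunit, differed by 0.28 ± 0.13 (SE, adjusted p = 0.147) in the knockout and 0.29 ± 0.13 (SE, adjusted p = 0.0922) in the wild type, whereas for Mcm3, another subunit, the differences were 0.05 ± 0.14 (SE, adjusted p = 0.84) and 0.03 ± 0.14 (SE, adjusted p = 0.903) in knockout and wild type. Tpx2, which activates Aurora A on spindle microtubules, differed by 0.30 ± 0.12 (SE, adjusted p = 0.107) and 0.23 ± 0.12 (SE, adjusted p = 0.15), in the same order, and Kif11, the kinesin that separates spindle poles, by 0.25 ± 0.12 (SE, adjusted p = 0.175) and -0.01 ± 0.12 (SE, adjusted p = 0.971). The dUTPase gene Dut, the cytokinesis gene Ect2 and the checkpoint gene Mad2l1 lay between -0.20 and 0.12 in both genotypes.

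**Figure D5:**
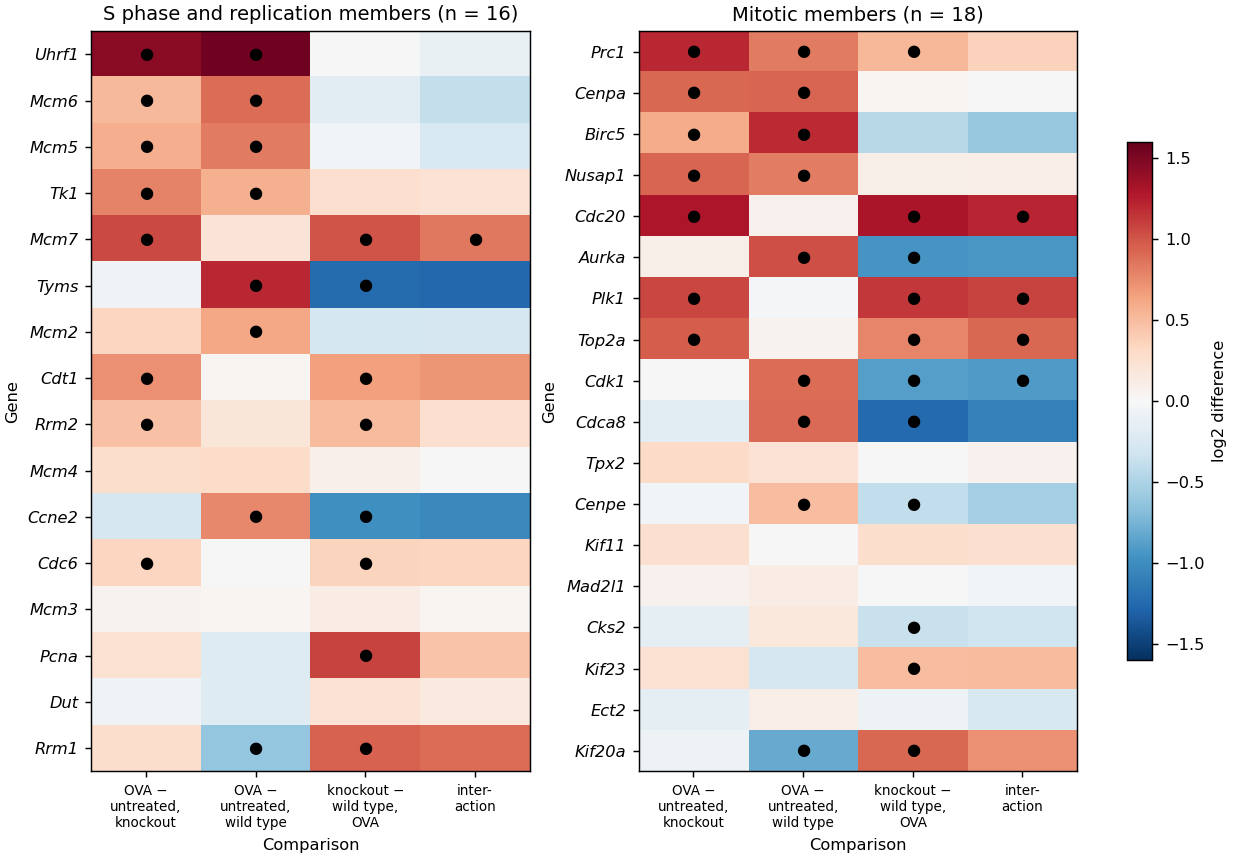
Log2 differences of the 34 tested members as a colour scale, 1 row per gene, with S phase genes on the left and mitotic genes on the right, in the columns challenged minus untreated knockout, challenged minus untreated wild type, knockout minus wild type after challenge, and the interaction. Dots mark called differences, which in the knockout challenge column are all positive and in the column of the challenged genotypes are of both signs.

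A set of 8 members had a probe too dim to be tested, the S phase genes Ccne1 and Gmnn and the mitotic genes Ccnb2, Ccna2, Bub1, Bub1b, Ube2c and Hmmr. Their values ran from 4.28 to 6.49 over all 16 arrays, with the 40th percentile of the arrays at 6.24 to 6.25. They were out of reach of these arrays rather than shown to be unchanged. For 7 genes several probes were tested, and for 4 of them the probes differed in their calls in the knockout (Birc5, Cdc6, Mcm6 and Nusap1) and for 4 in the wild type (Birc5, Mcm6, Nusap1 and Tyms), with no opposite calls.

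Without challenge no member passed the test between the genotypes. By limma 0 of 34 members were called higher or lower in untreated knockout against untreated wild type mice, beside 0.00561% and 0.0112% of all tested probes, and 1, Pcna, reached an unadjusted p under 0.05. Pcna was also the 1 member whose untreated groups did not overlap, higher in the knockout, beside 2.17% of all tested probes higher and 2.09% lower. In the interaction, which asks whether the challenge difference itself depends on genotype, 4 members were called higher in the knockout (Cdc20, Plk1, Top2a and Mcm7) and 1 lower (Cdk1), beside 5.67% and 3.67% of all tested probes. For Plk1, Top2a and Mcm7 the untreated knockout and both wild type groups lay at background, so how far their challenge differences depend on genotype is not known from these arrays. For all other members whose call differed between genotypes the interaction did not pass the test. With the receptor mean as a covariate 2 interaction calls remained, those of Plk1 and Mcm7.

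The wider replication and division machinery, from lists that do not include the members, is given by counts of called genes. Of all tested probes 9.1% were called higher and 7.48% lower in challenged knockout mice, and 11.7% and 17.7% in challenged wild type mice. Of 36 tested other replication genes 11 (30.6%) were called higher and 0 lower in challenged knockout mice, and 6 (16.7%) higher and 2 (5.56%) lower in challenged wild type mice. Lig1, the ligase that joins Okazaki fragments, differed by 0.83 ± 0.14 (SE, adjusted p = 0.000723) and 0.52 ± 0.14 (SE, adjusted p = 0.0113) in knockout and wild type. Chaf1a, of the histone chaperone that follows the fork, differed by 0.10 ± 0.25 (SE, adjusted p = 0.826) in the knockout and 0.93 ± 0.25 (SE, adjusted p = 0.0142) in the wild type, and Rpa2, of the single-strand binding complex, by 0.15 ± 0.18 (SE, adjusted p = 0.615) and 0.80 ± 0.18 (SE, adjusted p = 0.00513). Timeless, of the fork protection complex, differed by 0.12 ± 0.18 (SE, adjusted p = 0.7) in the knockout and -0.82 ± 0.18 (SE, adjusted p = 0.00403) in the wild type, a fall in the wild type. Between the challenged genotypes 16 of the 36 (44.4%) were called higher in the knockout and 3 (8.33%) lower, beside 21.1% and 23.1% of all tested probes.

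Of 45 tested other mitotic genes 9 (20%) were called higher and 0 lower in challenged knockout mice, and 8 (17.8%) higher and 2 (4.44%) lower in challenged wild type mice. Kif22 and Kif15, kinesins of the spindle, differed by 0.84 ± 0.18 (SE, adjusted p = 0.00456) and 0.80 ± 0.11 (SE, adjusted p = 0.000185) in the knockout and by 0.24 ± 0.18 (SE, adjusted p = 0.313) and 0.09 ± 0.11 (SE, adjusted p = 0.544) in the wild type. Gtse1, a microtubule-binding protein of mitosis, differed by 0.14 ± 0.17 (SE, adjusted p = 0.624) in the knockout and 0.94 ± 0.17 (SE, adjusted p = 0.00115) in the wild type, and the spindle gene Spag5 by 0.30 ± 0.33 (SE, adjusted p = 0.589) and 1.20 ± 0.33 (SE, adjusted p = 0.0142). Between the challenged genotypes 11 (24.4%) were called higher in the knockout and 8 (17.8%) lower, beside 21.1% and 23.1% of all tested probes.

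Of 9 tested G1 cyclin and kinase genes, which act upstream of both waves, 1 (11.1%) was called higher and 2 (22.2%) lower in each genotype, beside 9.1% and 7.48% of all tested probes in the knockout and 11.7% and 17.7% in the wild type. Ccnd1, a D-type cyclin gene, was lower in both, with differences of -0.71 ± 0.16 (SE, adjusted p = 0.00546) in the knockout and -0.56 ± 0.16 (SE, adjusted p = 0.0156) in the wild type. Cdk2, the partner of E-type cyclins, was higher by 0.60 ± 0.10 (SE, adjusted p = 0.000819) in the knockout, with 0.18 ± 0.10 (SE, adjusted p = 0.172) in the wild type. Of 15 tested genes of the E2F, retinoblastoma and MuvB factors, 2 (13.3%) were called higher and 0 lower in the knockout, and 1 (6.67%) higher and 4 (26.7%) lower in the wild type. E2f4, an E2F factor of resting cells, differed by -0.15 ± 0.22 (SE, adjusted p = 0.701) in the knockout and -1.19 ± 0.22 (SE, adjusted p = 0.00135) in the wild type, with an interaction of 1.05 ± 0.31 (SE, adjusted p = 0.0469). Lin54, the DNA-binding subunit of MuvB, differed by -0.26 ± 0.21 (SE, adjusted p = 0.445) in the knockout and -1.21 ± 0.21 (SE, adjusted p = 0.000776) in the wild type.

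Of 22 tested genes that hold back the cycle, 3 (13.6%) were called higher and 4 (18.2%) lower in the knockout, and 6 (27.3%) higher and 6 (27.3%) lower in the wild type, beside the same shares of all tested probes. Cdkn2b, which blocks the kinases of D-type cyclins, was lower, with differences of -1.52 ± 0.30 (SE, adjusted p = 0.00243) in the knockout and -1.20 ± 0.30 (SE, adjusted p = 0.00856) in the wild type. Btg1, an antiproliferative gene of resting lymphocytes, was higher by 1.00 ± 0.12 (SE, adjusted p = 9.54e-05) and 0.78 ± 0.12 (SE, adjusted p = 0.000407) in knockout and wild type. The stress gene Gadd45b was lower in both, with -0.69 ± 0.21 (SE, adjusted p = 0.0296) and -1.16 ± 0.21 (SE, adjusted p = 0.00106).

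Some markers of immune cells that can cycle were called higher beside the members, and their part in the members' differences was not tested. Of all tested probes 9.1% were called higher in the knockout and 11.7% in the wild type. T cell markers averaged 7.33 to 8.66 in challenged and 6.87 to 7.18 in untreated knockout lungs, and 7.20 to 8.46 in challenged and 6.93 to 7.07 in untreated wild type lungs. Of 10 tested T cell genes 5 (50%) were called higher in the knockout and 4 (40%) in the wild type, and 0 lower. B cell markers averaged 7.24 to 8.77 in challenged and 6.57 to 6.90 in untreated knockout lungs. In wild type lungs they averaged 6.57 to 8.31 in challenged and 6.58 to 6.86 in untreated mice, which overlapped. Of 7 tested B cell genes 4 (57.1%) were called higher in the knockout. In the wild type 1 (14.3%) was, a share near that of all tested probes. Macrophage markers averaged 8.70 to 10.20 in challenged and 8.06 to 8.46 in untreated knockout lungs, and 9.29 to 10.15 in challenged and 8.10 to 8.51 in untreated wild type lungs. Of 9 tested macrophage genes 5 (55.6%) were called higher in the knockout and 4 (44.4%) in the wild type. Thymocyte markers, for thymus taken along with the lung, averaged 6.57 to 7.32 in challenged and 6.46 to 6.58 in untreated knockout lungs, and 6.94 to 7.24 in challenged and 6.55 to 6.73 in untreated wild type lungs. Of 6 tested thymocyte genes 0 were called in the knockout and 2 (33.3%) higher in the wild type. These were Arpp21, by 0.94 ± 0.29 (SE, adjusted p = 0.0239), and Cd4, by 0.37 ± 0.12 (SE, adjusted p = 0.0327). In the knockout Arpp21 differed by 0.18 ± 0.29 (SE, adjusted p = 0.725) and Cd4 by 0.36 ± 0.12 (SE, adjusted p = 0.0544). Whether thymus was taken along was not tested.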

How the data were processed

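RNA of 16 lungs was measured on Illumina bead arrays, 1 per mouse. Each deposited value is a linear intensity of 1 probe, exported with GenomeStudio 2011.1 (submitters' processing notes), and the normalization and background treatment are not given in the sources used here. Array medians were 85.4 to 86.5, so no further normalization was applied. Intensities, which ran from 0.1 to 45825.5, were raised to a floor of 16 (1123 of 411152 values) and log2 transformed. Of 25697 probes, 23978 had 1 gene symbol in the platform annotation, 0 had several and 1719 were not listed. Tested were the 17810 probes that exceeded their array's 40th percentile at least 4 times.

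All 16 arrays were fitted with a mean per group in limma 3.58.1 (R 4.3.3, lmFit and eBayes). Challenged mice were set against untreated mice of their genotype and knockout against wild type mice of like treatment, and the interaction was the challenge difference of the knockout minus that of the wild type. A gene with several probes is given by the tested probe with the highest mean over all arrays. The fit was tested on simulated data. An exact two-sided permutation test of 4 against 4 arrays could not go under p = 0.0286. Arrays give no counts, so depth is not a measure here. The members and all gene lists were chosen with earlier results of these data known. All members may be named, and values in every array are given for the 8 members of each wave with the largest challenge differences among those called, for those called lower, for those called in a genotype contrast or the interaction, and for Pcna. From each other list up to 4 called genes with the largest challenge differences were eligible. Alternatives changed the floor, normalization, filter, variance model, array weights, arrays fitted, probe, replicate block and covariates, and left out each array. Labels do not say that replicate numbers mark pairs.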

Additional observations from a re-analysis of the deposited data

Results flagged for a closer look

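Among 116 groups of 4 arrays, 7 held 1 array far from the other 3 by Dixon's ratio, which chance gives in about 5% of groups. In challenged knockout mice these were Cenpa in mouse 2, at 9.13 against 9.48 to 9.52 in the others, and Cdca8 in mouse 4, at 6.25 against 6.6 to 6.65. In untreated knockout mice they were Rrm1 in mouse 4, at 6.40 against 7.21 to 7.35, and Top2a in mouse 4, at 5.49 against 5.94 to 5.99. In challenged wild type mice Cdca8 in mouse 4 was at 8.94 against 7.32 to 7.46, on the array that stood apart over all probes. In untreated wild type mice Birc5 in mouse 2 was at 6.93 against 6.66 to 6.69, and the mean of the S phase genes in mouse 3 was 7.07 against 7.01 in the others.

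The interaction, whether the challenge difference depends on genotype, was called for 5 genes. It was 1.22 on the log2 scale for Cdc20, larger in the knockout. The Cdc20 call was lost with the receptor mean as a covariate, and another Cdc20 probe gave 0.46 and was not called. For Cdk1 the interaction was -0.91, higher in the wild type. The Cdk1 call was lost in 10 of 16 fits that left out 1 array and with the receptor mean. The other Cdk1 probe did not make it. For Plk1 (1.09), Top2a (0.92) and Mcm7 (0.84) at most 1 of 4 arrays in each of the untreated knockout, challenged wild type and untreated wild type groups lay above its 40th percentile, so these fitted sizes rest on values at background. The calls of Top2a and Mcm7 were each lost in 4 of 16 fits that left out 1 array.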

How the results depend on the processing

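Under most settings the counts of called members stayed within 1.5 times those reported, except for the interaction when 1 array was left out. The settings under which they did not are given here, and the cause was not tested. With the skeletal muscle mean as a covariate, the calls in the knockout fell to 2 (1 S phase and 1 mitotic gene higher), and those in the wild type were 10, with 5 mitotic genes higher. With the receptor mean as a covariate, the wild type calls were 9 (4 S phase and 5 mitotic genes higher), those between the challenged genotypes 6 and the interaction calls 2. Fitting the 8 arrays of a comparison alone gave 9 calls in the wild type (4 S phase and 5 mitotic genes higher), 10 between the challenged genotypes and 1 between the untreated genotypes. A filter at the 60th percentile left 5 S phase genes higher in the knockout and 3 interaction calls. Array weights gave 1 call between the untreated genotypes and 9 in the interaction.

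Leaving out 1 array gave 10 to 17 calls in the knockout (3 to 9 S phase and 6 to 8 mitotic genes higher) and 11 to 18 in the wild type (5 to 8 and 6 to 8). It gave 15 to 20 calls between the challenged genotypes, 0 to 0 between the untreated ones and 2 to 12 in the interaction. The lowest knockout S phase count came without untreated mouse 4, the lowest wild type count without untreated mouse 1, and 12 interaction calls came without challenged wild type mouse 3. Direction turned in the wild type for Mcm6, to -0.17 with its dimmest probe, and between the challenged genotypes for Cdc6, to -0.0815 with its dimmest probe. With the receptor mean as a covariate it turned between the challenged genotypes for Tyms (0.15), Ccne2 (0.10), Aurka (0.41), Cdca8 (0.0923), Cenpe (0.0457) and Cdt1 (-0.079).

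The labels do not say whether the replicate numbers pair the samples. Of 24 same-numbered pairs, 6 correlated above 0.1 (range -0.106 to 0.319). Differently numbered pairs were not compared, so these correlations cannot show whether the numbers mark pairs. With the replicate block the counts were 15, 17, 19 and 0 in the knockout, the wild type, the challenged and the untreated genotypes, and 7 in the interaction. Dim probes limit what can be read, since 8 members with a probe could not be tested.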

Other observations

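Endothelial markers were lower in challenged lungs. Of 11 tested endothelial genes 9 (81.8%) were called lower in the knockout and 8 (72.7%) in the wild type, beside 7.48% and 17.7% of all tested probes, and 0 were called higher in either. Tmem100, an endothelial gene of the lung, differed by -2.54 ± 0.39 in the knockout and -1.65 ± 0.39 in the wild type, and Lyve1, a lymphatic endothelial marker, by -2.35 ± 0.32 and -1.57 ± 0.32 (SE). Of 9 lung epithelial genes 4 (44.4%) were called lower and 1 (11.1%) higher in the knockout, and 1 (11.1%) lower and 0 higher in the wild type, where 17.7% of all tested probes were called lower. Ager, a marker of flat alveolar cells, differed by -2.04 ± 0.45 in the knockout and -0.63 ± 0.45 in the wild type, where it was not called, and the surfactant gene Sftpd by 1.20 ± 0.16 in the knockout and 0.40 ± 0.16 in the wild type, also not called.

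Of 10 germinal centre and plasma cell genes 2 (20%) were called higher and 1 (10%) lower in the knockout, and 3 (30%) higher and 2 (20%) lower in the wild type, beside 9.1% and 7.48% of all tested probes in the knockout and 11.7% and 17.7% in the wild type. Mzb1, a gene of antibody-secreting cells, differed by 2.22 ± 0.35 in the knockout and 2.31 ± 0.35 in the wild type. Retnla, a product of alternatively activated macrophages, differed by 4.73 ± 0.49 and 4.27 ± 0.49. Of 4 tested erythroid genes 2 were called lower in the knockout and 0 in the wild type, where 1 was higher. Hba-a1, an alpha globin gene, differed by -1.25 ± 0.16 in the knockout and 0.01 ± 0.16 in the wild type, with an interaction of -1.26 ± 0.23 (SE, limma adjusted p = 0.00983).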
